A study of Mus musculus with 96 samples.

Results

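Ucp1, Ucp2, Ucp3, Slc25a4 and Slc25a5 encode carriers of the mitochondrial inner membrane, and they were selected by their symbols. All 5 were present among the 22632 genes of the sciatic nerve files (SCN in the labels) and the 20940 genes of the gastrocnemius muscle files (GASTROC). Messenger RNA had been sequenced in 96 libraries from male C57BL/6J mice housed 1 to a cage. Animals entered their regimens at 12 weeks of age and tissue was collected at 26 weeks. Standard diet (SD) supplied 10% of energy as fat, high-fat diet (HFD) 60% from lard and ketogenic diet (KD) 90% from cocoa butter. The remaining groups ate HFD first and changed at 18 weeks. They moved to SD (DR), moved to KD (KDI), stayed on HFD with a voluntary running wheel (EX), or moved to KD with a wheel (KDI_EX). Nerve gave 6 SD, 6 HFD and 7 libraries of each other group. Muscle gave 8 SD and 6 KDI_EX libraries and 7 of each other group. No transgene or deletion is named in the labels.

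The uncoupling proteins and the adenine nucleotide carriers belong to the same family of small membrane carriers. Adenine nucleotide carriers exchange ADP from the cytosol for ATP made inside the mitochondrion. Ucp1 lets protons re-enter without ATP synthesis and so releases heat in brown fat. Ucp2 is found in many tissues and is abundant in immune cells, and Ucp3 is mostly a gene of skeletal muscle and brown fat whose transcript is known to respond to fatty acid supply and fasting. Slc25a4 is the main adenine nucleotide carrier of heart and skeletal muscle, and Slc25a5 is the more widely expressed form.

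The values are deposited log2 expression values, 1 per gene and library, on a transform that was not stated. Depth is unknown, so no counting error can be given, and lengths are not removed, so levels were compared within a gene and never between genes. Library medians ran from 7.46 to 7.66 in nerve and from 6.89 to 7.17 in muscle. The labelled tissues were checked by Mbp, a gene of myelin, which had a median of 18.68 in nerve, and by the muscle actin gene Acta1, which had a median of 19.28 in muscle. Nerve libraries also held muscle transcripts, with Acta1 between 7.66 and 14.27, and EX replicate 5 and KDI_EX replicate 7 stood apart from the other nerve libraries on the first principal component. No muscle library stood apart. In bulk tissue, fewer cells of a type and less RNA per cell cannot be told apart.

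Ucp3 and Ucp2 are neighbours on chromosome 7 of GRCm38. Ucp3 spans 100472990 to 100486432 and Ucp2 spans 100493337 to 100502020, both on the plus strand, with 6904 bases between them. Ucp1 lies on chromosome 8 from 83290352 to 83298452 and Slc25a4 on the same chromosome from 46206797 to 46211284 on the minus strand. Slc25a5 lies on chromosome X from 36795651 to 36798807. The 250 bases before the RefSeq start of the 3 uncoupling protein genes (GRCm38.p6, plus strand) are shown so that the adjacent pair can be read side by side. No expression result below uses these bases.
Ucp3, chr7:100472741-100472990: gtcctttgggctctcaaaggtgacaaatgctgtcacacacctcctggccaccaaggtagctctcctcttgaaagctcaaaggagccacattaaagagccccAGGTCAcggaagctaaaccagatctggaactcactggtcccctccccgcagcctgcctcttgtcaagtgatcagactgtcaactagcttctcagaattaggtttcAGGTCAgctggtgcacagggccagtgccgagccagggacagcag
Ucp2, chr7:100493108-100493357: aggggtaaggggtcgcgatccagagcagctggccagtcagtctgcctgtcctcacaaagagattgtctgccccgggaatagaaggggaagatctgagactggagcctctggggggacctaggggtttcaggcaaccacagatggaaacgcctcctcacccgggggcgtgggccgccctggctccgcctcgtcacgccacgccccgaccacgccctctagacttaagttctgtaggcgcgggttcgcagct
Ucp1, chr8:83290098-83290347: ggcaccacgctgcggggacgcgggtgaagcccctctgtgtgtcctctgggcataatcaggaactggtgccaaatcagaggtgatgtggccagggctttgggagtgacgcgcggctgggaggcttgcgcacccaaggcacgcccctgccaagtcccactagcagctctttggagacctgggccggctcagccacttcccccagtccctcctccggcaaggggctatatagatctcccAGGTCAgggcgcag
Capitals mark AGGTCA, the half-site read by nuclear receptors such as the fatty acid receptors of the PPAR family, searched on both strands. Ucp3 held 2 matches, whose first bases lay 149 and 44 bases before the start. Ucp1 held 1 match, 14 bases before the start. Ucp2, Slc25a4 and Slc25a5 held 0. The half-site occurs in 14% of the 32851 mouse promoter windows of that length. AGGTCA repeated in the same direction with 1 base between, which contains the half-site, occurs in 0.0335% of them and in 0 of the 5 carriers' windows. The E-box CANNTG, read by muscle factors such as MyoD, had 3 matches in Ucp3, 2 in Ucp2 and 0 in Ucp1, and it occurs in 66.2% of windows. TATAAA had 0 in all 5 and occurs in 12.4%. A match is a description of letters only.

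In gastrocnemius, Ucp3 was the 1 member called for a difference between diets. It was lowest in both groups that ate HFD to the end, HFD and EX, and highest in both groups that ended on SD. The 7 HFD libraries ran from 12.28 to 12.71 with a median of 12.50, and the 8 SD libraries from 12.62 to 13.68 with a median of 13.13. Every HFD library was below the SD mean, and the ranges touched at their edges. Ucp3 fell by 0.61 ± 0.12 log2 units (SE; 95% interval -0.85 to -0.38) in HFD against SD, from 13.10 ± 0.35 to 12.49 ± 0.15 (SD, n = 8 and 7; limma adjusted p = 0.0367). It was the 1 call among the 4 tested members in that comparison, where 0.0191% of the 15748 tested muscle genes were called. The call was lost when the fit held only those 2 groups (adjusted p = 0.11) and when any of 6 single libraries was left out (HFD replicates 3, 4 and 6, SD replicates 3, 6 and 8), with estimates from -0.62 to -0.53.

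**Figure D1:**
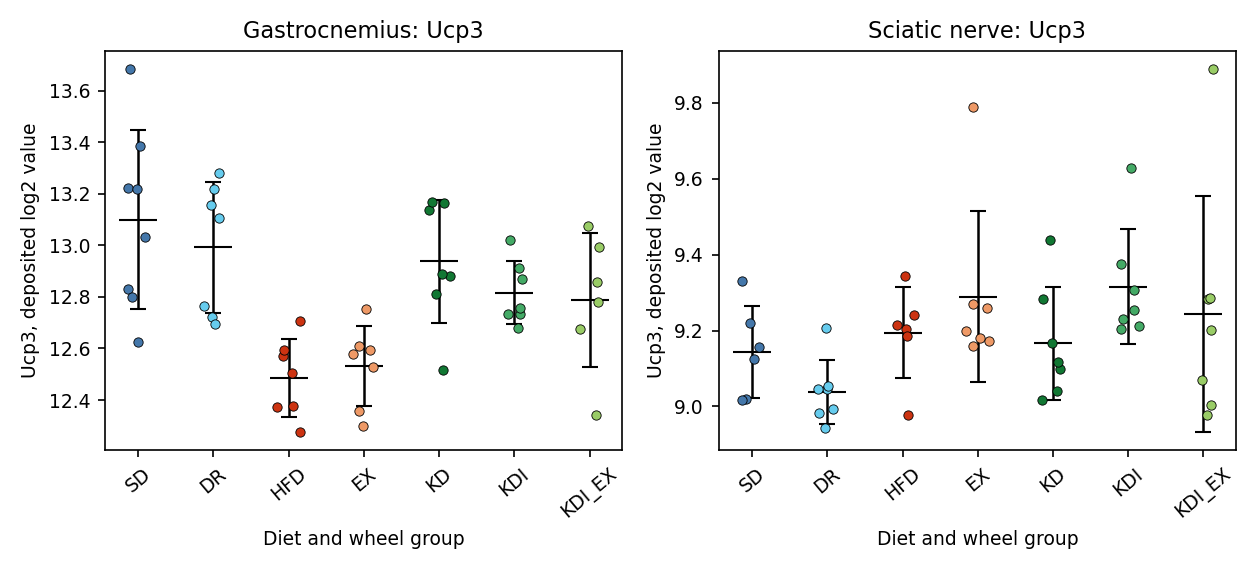
Deposited log2 values of Ucp3 in gastrocnemius (left) and sciatic nerve (right) by diet and wheel group. Dots are libraries, long bars are group means and whiskers are 1 SD. In muscle the HFD and EX libraries lie between 12.28 and 12.75, and in nerve the highest libraries are EX replicate 5 at 9.79 and KDI_EX replicate 7 at 9.89.

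Animals moved from HFD back to SD had Ucp3 close to the level of animals never given HFD. DR libraries ran from 12.69 to 13.28 with a median of 13.11, and their mean of 12.99 ± 0.25 was 0.11 ± 0.12 below SD (95% interval -0.35 to 0.13; adjusted p = 1, 0% called). With each library left out this difference ran from -0.18 (without SD replicate 7) to -0.02 (without SD replicate 8). DR exceeded HFD by 0.51 ± 0.12, with all 7 DR libraries above the HFD mean, but this did not pass over all genes (adjusted p = 0.256, 0.0254% of genes called). The 15 libraries that ended on SD spanned 12.62 to 13.68 around a median of 13.11.

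On ketogenic diet, which supplied more fat than HFD, the mean Ucp3 level lay nearer to SD than to HFD. KD libraries ran from 12.52 to 13.17 with a median of 12.89, and 6 of the 7 lay above the highest HFD library. The KD mean of 12.94 ± 0.24 was 0.16 ± 0.12 below SD (95% interval -0.40 to 0.08; adjusted p = 0.618, 0.197% called; -0.08 without SD replicate 8) and 0.45 ± 0.12 above HFD (95% interval 0.21 to 0.70; adjusted p = 0.109, 0.318% called). Neither passed, although KD vs HFD did so without KD replicate 4, the lowest KD library (0.52, adjusted p = 0.0413), and with the Schwann cell score in the fit (0.51, adjusted p = 0.0286). The 0.318% belongs to the main fit, and the shares called in those alternative fits are not given. Other alternatives weakened the difference between KD and HFD. The estimate fell to 0.35 under another setting, and limma adjusted p reached 0.282 with a library left out and 0.448 over all alternatives.
KDI libraries, fed KD after HFD, ran from 12.68 to 13.02 with a median of 12.76, a narrow range with its lowest value just under the highest HFD library. KDI was 0.33 ± 0.12 above HFD (adjusted p = 1, 0.0318% called), 0.12 ± 0.12 below KD and 0.18 ± 0.12 below DR, and 0 of these passed.

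No difference with a running wheel passed, on either diet. EX libraries ran from 12.30 to 12.75 with a median of 12.58, across nearly the same span as HFD. The difference of EX from HFD was 0.05 ± 0.12 (95% interval -0.20 to 0.29; adjusted p = 0.996, 0% called). KDI_EX libraries ran from 12.34 to 13.07 with a median of 12.82, overlapping the KDI libraries. They differed from KDI by -0.03 ± 0.13 (95% interval -0.28 to 0.23; adjusted p = 0.99, 0% called). The change with a wheel on KD minus that on HFD was -0.07 ± 0.18 (95% interval -0.43 to 0.28; adjusted p = 1).

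Ordered by mean, muscle Ucp3 ran SD, DR, KD, KDI, KDI_EX, EX and HFD. The step from KDI_EX to EX, 0.26 log2 units, was the only one of the 6 between neighbours to exceed the pooled SD of 0.23, and the test of that pair did not pass (adjusted p = 0.717, 0.0635% called). KDI_EX exceeded HFD by 0.30 ± 0.13 (adjusted p = 0.635, 0.108% called). The 14 libraries on HFD at the end, with or without a wheel, lay between 12.28 and 12.75, and 26 of the 35 other muscle libraries lay above all of them. The range of the 7 group means, 0.61, was larger than that of 97.6% of tested muscle genes, whose median range was 0.18.

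**Figure D2:**
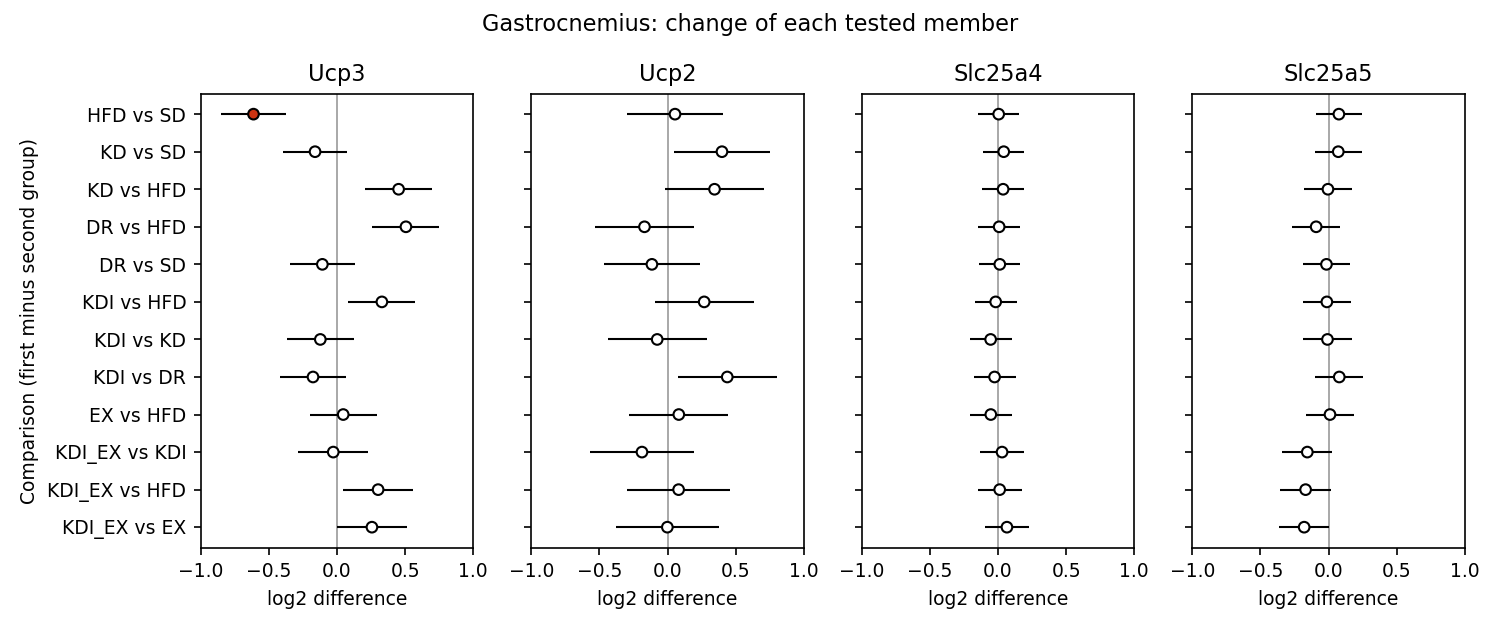
Differences in log2 value (first minus second group) of the 4 members tested in gastrocnemius, for 12 comparisons. Points are limma estimates, lines are 95% intervals, and the filled point is the 1 call, Ucp3 in HFD against SD at -0.61. Intervals of Slc25a4 all lie between -0.21 and 0.23.

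Markers of other cells and of fibre types also differed in value between HFD and SD muscle, with 0 called in any of the 4 lists given here. All 10 slow fibre markers were higher in HFD than SD muscle in value, with a median difference of 0.80 (all tested genes, -0.0046). The slow fibre score, the mean centred log2 value of the list, ran from -0.84 to 1.02 in HFD and from -1.66 to 1.22 in SD. The fast fibre score ran from -0.32 to 0.19 in HFD and from -0.08 to 0.22 in SD, and all 10 markers of each list were tested. Over the 49 muscle libraries Ucp3 followed the fast fibre score weakly (Pearson r = 0.38, permutation p = 0.00737, adjusted over 10 relations p = 0.0147; Spearman rho = 0.35, p = 0.0147, adjusted p = 0.038; r = 0.36 without the 2 most extreme libraries). Against the slow fibre score r was -0.18 (permutation p = 0.216, adjusted p = 0.309) and rho was -0.19 (p = 0.199, adjusted p = 0.331). With group means removed, r was 0.245 for the fast and -0.046 for the slow fibre score. The permutations ignored the groups, so differences between groups enter these p-values. The fall in HFD was -0.56 (adjusted p = 0.0478) with the adipocyte and slow fibre scores in the fit and -0.58 (adjusted p = 0.05 after rounding, still called) with the fast fibre score, the latter added after seeing the data.

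Markers of Schwann cells and myelin in muscle followed the order of the Ucp3 means in part. Of 15, all tested, 0 were higher in HFD than SD (median -0.35), 15 were higher in KD than HFD (0.35), 15 in DR than HFD (0.43), and 1 in EX than HFD (-0.13). Their score ran from -0.55 to 0.37 in HFD, -0.62 to 0.17 in EX, -0.19 to 1.02 in SD, -0.39 to 0.48 in DR and -0.44 to 0.68 in KD. It ran from -0.73 to 0.78 in KDI and -0.525 to 1.07 in KDI_EX, so the groups overlapped. KDI_EX replicate 3 had the highest score of the muscle libraries, 1.07, and the lowest Ucp3 of its group, 12.34. Of 20 macrophage markers, 19 were higher in HFD than SD (median 0.15). In fits added after seeing the data, Ucp3 fell in HFD vs SD by 0.67 ± 0.12 with the Schwann cell score (adjusted p = 0.00408) and by 0.59 ± 0.11 with the macrophage score (adjusted p = 0.0144).

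The genes whose muscle values ran most closely with Ucp3 over 49 libraries, among 12231 searched, were Pdk4 (r = 0.74, rho = 0.70), Apbb3 (r = 0.70), Atg14 (r = 0.70), Pnpla7 (r = 0.69) and Spns2 (r = 0.69). Pdk4 encodes a kinase that switches off pyruvate dehydrogenase and so spares glucose, Atg14 a factor of autophagy, and Spns2 a transporter of sphingosine-1-phosphate. Muscle Pdk4 averaged 15.65 ± 0.36 in SD, 15.52 ± 0.38 in DR and 15.50 ± 0.29 in KD, and 15.05 ± 0.29 in HFD and 15.11 ± 0.28 in EX. Its group ranges overlapped widely, and it passed in none of the 12 muscle comparisons (HFD vs SD, adjusted p = 0.24).

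In nerve, Ucp3 showed no call in 12 comparisons, and its values followed muscle transcripts in the sample. Nerve Ucp3 ran from 8.94 to 9.89 with a median of 9.20. The largest difference was KDI over DR, 0.28 ± 0.10 (95% interval 0.09 to 0.47; adjusted p = 0.865, 0.00581% of 17226 genes called). The 7 KDI libraries ran from 9.20 to 9.63 (median 9.25) and the 7 DR libraries from 8.94 to 9.21 (median 9.04), so that the groups met only at their edges. HFD differed from SD by 0.05 ± 0.10 in nerve (95% interval -0.16 to 0.26; adjusted p = 0.826, 0% called). The muscle effect minus the nerve effect was -0.66 ± 0.16, which did not pass over the 15055 genes tested in both tissues (adjusted p = 0.194, 0.00664% called). The SE treats the tissues as independent.

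Over the 47 nerve libraries, Ucp3 varied with the score of 18 skeletal muscle markers (r = 0.64, permutation p = 2e-05, adjusted p = 6.67e-05; rho = 0.35, p = 0.0152, adjusted p = 0.038). Without EX replicate 5 and KDI_EX replicate 7, which had the highest scores, r was 0.44 (permutation p = 0.00263). With group means removed, r was 0.77. Its closest genes in nerve were Jph1 (r = 0.84), a junctional protein of muscle membranes, Pde4dip (r = 0.82), Scn4b (r = 0.81), a sodium channel subunit, Ddit4l (r = 0.81) and Reep1 (r = 0.81). The score ranged from -1.60 to 2.78 in KDI and from -1.55 to 1.42 in DR. With the muscle and adipocyte scores in the fit, KDI exceeded DR by 0.27 (adjusted p = 0.0932).

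**Figure D3:**
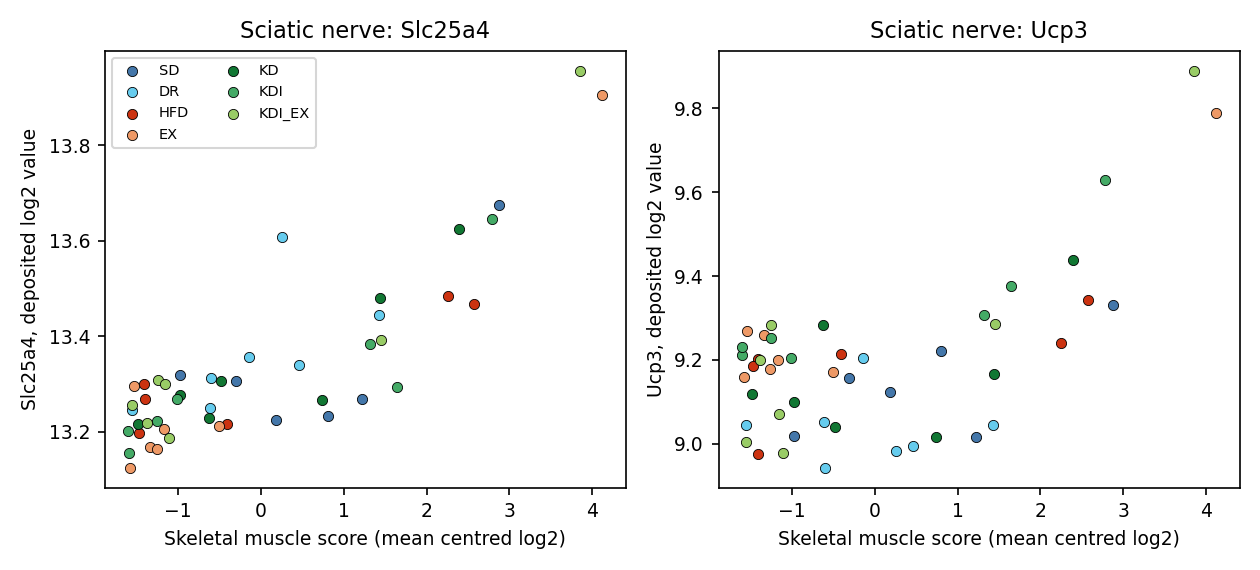
Deposited log2 values of Slc25a4 (left) and Ucp3 (right) in sciatic nerve against the skeletal muscle score, the mean centred log2 value of 18 markers, with 1 dot per library coloured by group. Both are highest in EX replicate 5 and KDI_EX replicate 7, and Pearson's r is 0.85 for Slc25a4 and 0.64 for Ucp3.

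Ucp2 had no call in either tissue, and in muscle its level went with macrophage transcripts. Muscle KD libraries ran from 10.12 to 11.04 (median 10.61), KDI from 10.11 to 10.78 (10.68), EX from 10.13 to 10.79 (10.31) and KDI_EX from 9.64 to 11.17 (10.36). HFD libraries ran from 9.94 to 10.77 (10.21), SD from 9.84 to 11.00 (10.08) and DR from 9.42 to 10.60 (10.10). All groups overlapped, and no step between neighbouring means exceeded the pooled SD of 0.35. KD exceeded SD by 0.40 ± 0.18 (95% interval 0.05 to 0.75; adjusted p = 0.454), and KDI exceeded DR by 0.44 ± 0.18 (95% interval 0.07 to 0.80; adjusted p = 0.615, 0.0508% called).

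The macrophage score, from 20 markers that were all tested, tracked muscle Ucp2 over 49 libraries (r = 0.88, permutation p = 1e-05, the smallest that 100000 resamples can give, adjusted p = 5e-05; rho = 0.87, p = 1e-05, adjusted p = 5e-05). It held without the extreme libraries DR replicate 1 and SD replicate 1 (r = 0.85) and within groups (r = 0.91). The genes closest to Ucp2 in muscle were Apbb1ip, Tyrobp, Ifngr1, Alox5ap and Laptm5, with r from 0.897 to 0.903. Tyrobp, a signalling adaptor of myeloid cells, and Laptm5, a lysosomal protein of blood cells, are in the marker list, and Ifngr1 is a chain of the interferon gamma receptor. The score ran from -0.44 to 0.41 in KD, -0.25 to 0.49 in KDI, -1.17 to 0.48 in DR, -0.57 to 1.09 in SD and -0.55 to 0.63 in HFD.

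With the macrophage score in the fit, an alternative added after seeing the data, the SE of KD vs HFD went to 0.08 and KD exceeded HFD by 0.33 (adjusted p = 0.0194). Without the score the same difference was 0.34 ± 0.18 (limma adjusted p = 0.871). The share of all genes called with the score in the fit is not given. KD vs SD was then 0.29 (adjusted p = 0.0687), and KDI vs DR went from 0.44 to 0.15 (adjusted p = 1). In nerve, Ucp2 ran only from 12.66 to 13.16, with differences of -0.12 to 0.07 over 12 comparisons (adjusted p of 0.686 or more). Its relation to the macrophage score there was r = 0.24 (permutation p = 0.104, adjusted p = 0.173) and rho = 0.14 (p = 0.355, adjusted p = 0.444). The nearest genes in nerve were Necap2 (r = 0.74), Gltp (r = 0.70), Smap2 (r = 0.69), Vstm4 (r = 0.68) and B4galnt1 (r = 0.67), none of them a macrophage marker of the list. Whether the 2 correlations differ was not tested.

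**Figure D4:**
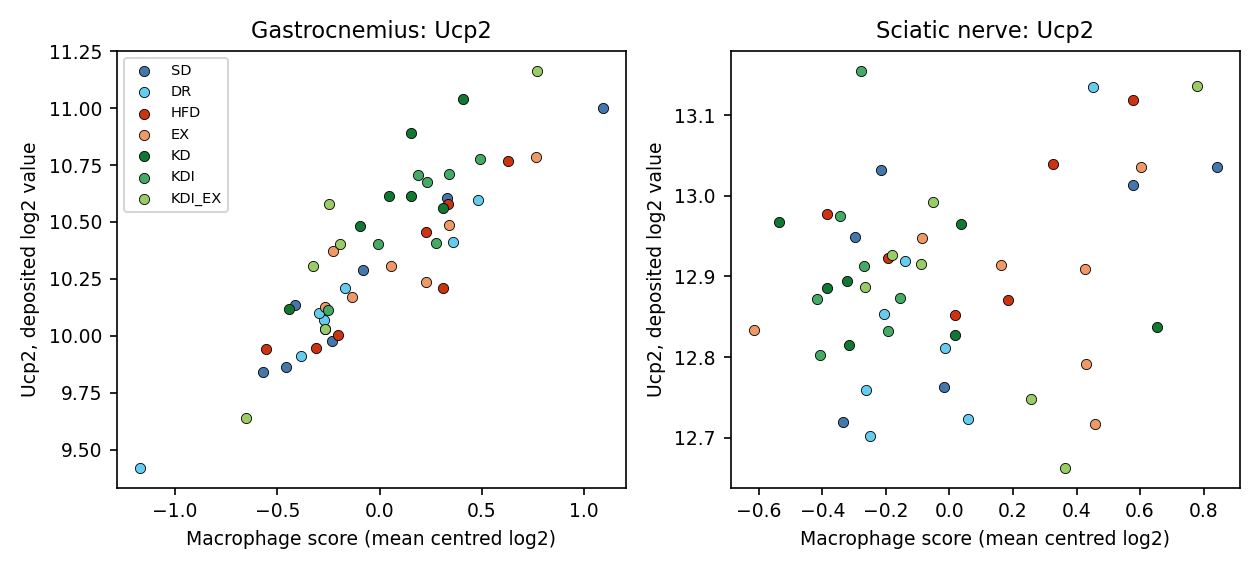
Deposited log2 values of Ucp2 against the macrophage score (mean centred log2 value of 20 markers) in gastrocnemius (left) and sciatic nerve (right), with 1 dot per library coloured by group. In muscle the dots follow a line with Pearson's r of 0.88, and in nerve r is 0.24. The vertical axes cover different ranges.

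Ucp1 was near a floor in most nerve libraries and far above it in a few. In 41 of 47 nerve libraries it lay between 3.03 and 3.57, with a median of 3.18. It exceeded 4 in KD replicate 6 (12.73), KD replicate 1 (9.70), SD replicate 5 (7.95), KD replicate 2 (6.18), KD replicate 5 (4.97) and KDI replicate 7 (4.53). Thus 4 of 7 KD libraries were raised in value and 3 were at the floor, while all HFD, DR, EX and KDI_EX libraries were at it. The KD mean of 6.12 ± 3.77 exceeded SD by 2.12 ± 0.89 (adjusted p = 0.822) and HFD by 2.90 ± 0.89 (adjusted p = 0.365, 0.0348% called), and KDI differed from KD by -2.71 ± 0.86 (adjusted p = 1). These limma SEs and p-values use 1 spread shared by the 7 groups. The SD of Ucp1 ran from 0.04 in DR to 3.77 in KD, so they understate the error of the KD differences. None passed, and the size rested in part on KD replicate 6. Without it KD vs SD was 1.02, KD vs HFD 1.80 and KDI vs KD -1.61. Without SD replicate 5, KD vs SD was 2.91. Ucp1 entered the nerve tests with 9 libraries at the required level, 4 of them KD. The other groups held 5, fewer than the 6 required, so the gene was tested only through the group where it was high.

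Cidea, a lipid droplet protein that marks brown fat, was also high in 4 of these libraries, which held its 4 highest nerve values. It stood at 7.99 in KD replicate 6, 7.32 in SD replicate 5, 7.06 in KD replicate 1, 5.77 in KD replicate 2, 5.32 in KD replicate 5 and 4.67 in KDI replicate 7, against a median of 4.43 over all nerve libraries. In libraries with Ucp1 at the floor it reached 5.36 in SD replicate 6 and 5.15 in KDI_EX replicate 6, so KDI replicate 7 did not stand out. Over 47 libraries r with Ucp1 was 0.91, a description that rests on the few high libraries. Other brown fat markers were mixed. Elovl3, a fatty acid elongase, was highest in SD replicate 5 at 1.35, still below the level needed for testing. Cox8b, a respiratory subunit of brown fat and muscle, was 7.77 in SD replicate 5 and 8.02 in KD replicate 6 against a median of 6.73, but highest in EX replicate 5 at 8.63. Prdm16, a brown fat regulator, stayed between 9.95 and 10.57, and Lhx8 was highest in DR replicate 2 at 2.48. The score of the 8 tested of 11 brown fat markers ran from -0.34 to 0.64 in KD, -0.19 to 0.66 in SD and -0.18 to 0.17 in HFD. Cidea was 1 of these 8 markers, and r of Ucp1 with the other tested ones ran from -0.05 (Prdm16 and Kcnk3) to 0.35 (Cox8b). Between Ucp1 and the score, r was 0.62 (permutation p = 6e-05, adjusted p = 0.00015) and 0.41 without SD replicate 5 and KD replicate 6. Spearman's rho was 0.20 (permutation p = 0.171, adjusted p = 0.331), so that the relation rests on the few libraries above the floor. The fat cell hormone gene Adipoq ran from 12.77 to 13.94 in the 6 libraries, against a nerve median of 13.61. Only KD replicate 5 lay above that median, and SD replicate 5 was at it. Lep, another fat cell hormone gene, was 9.64 in KD replicate 6, the lowest of 47. Ucp1 did not follow the score of 20 adipocyte markers (r = -0.13, permutation p = 0.402, adjusted p = 0.447; rho = -0.03, p = 0.852, adjusted p = 0.852). That score was -0.55 in KD replicate 6, 0.09 in KD replicate 1, 0.23 in SD replicate 5, -0.68 in KD replicate 2, 0.50 in KD replicate 5 and -0.35 in KDI replicate 7. The closest genes by the naming rule were Lbhd1 (r = 0.51), Id1 (r = 0.45), Ptprr (r = 0.44), Lgr6 (r = 0.42) and Cdh6 (r = 0.41), and Cidea lay below that rule's mean level of 5. In muscle, Ucp1 ran from 0.74 to 1.80 and did not reach the testing level in any group.

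**Figure D5:**
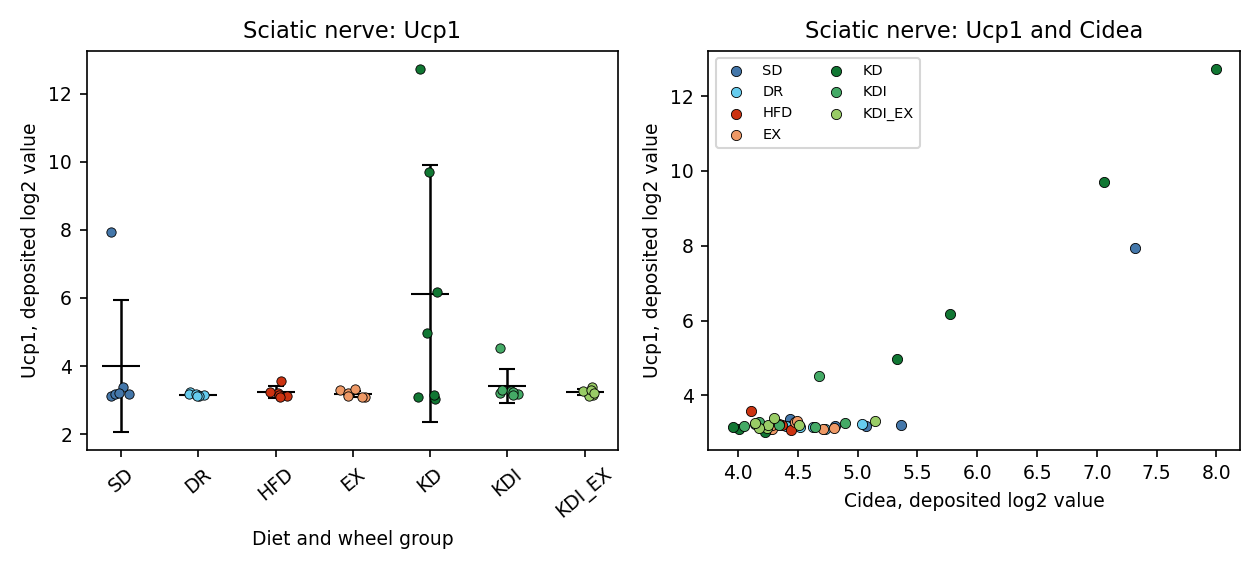
Left, deposited log2 values of Ucp1 in sciatic nerve by group, with dots for libraries, long bars for means and whiskers for 1 SD. Right, Ucp1 against Cidea in the same libraries. The 4 highest Ucp1 values, from 6.18 to 12.73, are in 3 KD libraries and 1 SD library, which also have the highest Cidea values.

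Slc25a4 had the smallest range of group means among the tested members in both tissues. Muscle Slc25a4 ran from 16.57 to 17.09 over 49 libraries, and its 7 group means differed by at most 0.09, a range smaller than that of all but 9.5% of tested genes. In muscle its 12 differences lay between -0.05 and 0.07, with the lowest adjusted p at 0.847 and every 95% interval within -0.21 and 0.23. Nerve Slc25a4 means spanned 0.08, smaller than all but 7.5% of genes, with differences from -0.05 to 0.08. The spread between nerve libraries was wider than in muscle (pooled SD 0.19 and 0.13) and followed the skeletal muscle score (r = 0.85, permutation p = 1e-05, adjusted p = 5e-05; rho = 0.75, p = 1e-05, adjusted p = 5e-05; r = 0.79 without EX replicate 5 and KDI_EX replicate 7). Its closest genes in nerve were Tuba4a, Adssl1, Aldoa, Pfkm and Cacna1s, with r from 0.91 to 0.93. Adssl1 is a muscle enzyme of purine metabolism, Aldoa and Pfkm are glycolytic enzymes and Cacna1s is the calcium channel of the muscle fibre membrane. In muscle its closest genes were Suclg1, Vdac2, Iscu, Prelid3b and Mrps18b (r from 0.87 to 0.89).

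Slc25a5 differed little as well. Muscle libraries ran from 10.45 to 11.28, with KDI_EX lowest at 10.79 ± 0.22 (range 10.45 to 11.07) and EX highest at 10.97 ± 0.20 (range 10.71 to 11.28). That pair differed by -0.18 ± 0.09 (95% interval -0.36 to 0.0052; adjusted p = 0.732), and the nerve differences lay between -0.16 and 0.13. Its closest genes in muscle were Otulin, Atp6v1h, F2r, Slc25a17 and Lmna (r from 0.77 to 0.80), and in nerve Pcca (r = 0.89), Lgals9 (r = 0.88), Gstm2 (r = 0.88), Trap1 and Decr1. An annotated pseudogene of Slc25a5 is listed in both tissues' files, so some of its reads could have been split. The difference Slc25a4 minus Slc25a5 within a library averaged 6.07 ± 0.22 in KDI_EX and 5.83 ± 0.08 in EX muscle, 0.24 apart (exact permutation test, two-sided p = 0.00699, adjusted over 12 comparisons p = 0.0839). It did not pass, except without EX replicate 4 (0.27, adjusted p = 0.026). The other 11 muscle comparisons and the 12 nerve comparisons had adjusted p of 0.587 or more.

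Over the 12 comparisons, 1 of 48 member tests passed in muscle and 8 had an unadjusted limma p under 0.05. Of those 8, 6 were of Ucp3 and 2 of Ucp2, in comparisons that share groups. In nerve 0 of 60 passed and 4 had one. Of those 4, 1 was of Ucp3 and 3 were of Ucp1, which entered the nerve tests only through KD. The 3 of Ucp1 rest on a spread shared by all groups that is smaller than the spread of KD. Per comparison, 226 to 1611 of the 15748 tested muscle genes had an unadjusted p under 0.05, and 460 to 3135 of the 17226 nerve genes. Among all tested genes, 0% to 0.318% were called per comparison in muscle. In nerve the share was 0.0697% in KDI_EX vs HFD, 0.0581% in KDI_EX vs EX, 0.0348% in KD vs HFD, 0.0232% in KDI vs HFD, 0.00581% in KD vs SD and in KDI vs DR, and 0% in the other 6. Few other genes of these pathways were called. Of 24 tested targets of the fatty acid receptors, 2 rose in muscle in KD vs SD, where 0.197% of all genes were called, Acot1 by 1.31 ± 0.26 (from 7.13 ± 0.38 to 8.45 ± 0.52; adjusted p = 0.00869) and Acadl by 0.55 ± 0.12 (from 13.30 ± 0.21 to 13.85 ± 0.19; adjusted p = 0.0287). Acot1 hydrolyses acyl-CoA and is nearly identical to Acot2, with which reads may be shared, and Acadl is a dehydrogenase of fatty acid oxidation. Acot1 also rose in KDI vs DR, where 0.0508% of genes were called, by 1.42 ± 0.27 (adjusted p = 0.0113), as did catalase, Cat, 1 of 13 genes of peroxide defence (0.49 ± 0.10, adjusted p = 0.0173).

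The targets were higher in HFD than SD muscle in value for 20 of 24, with a median of 0.21, opposite in sign to Ucp3. Slc25a20, the carnitine carrier of the same family, was 0.35 ± 0.10 higher in HFD (adjusted p = 0.218), and Pdk4 was among the targets lower in value. KDI against DR gave 23 of 24 higher and a median of 0.31 (all genes, -0.0070). The macrophage markers were higher in that comparison too, 20 of 20 in value with a median of 0.37, and their part was not tested. Of 19 tested relatives among the mitochondrial carriers, 20 regulators linked to Ucp3, 16 subunits of ATP synthase, 16 brown fat genes, 14 porins and kinases and 9 calcium cycling genes, 0 were called in any muscle comparison. In HFD vs SD their medians were 0.01, -0.0097, 0.10, 0.16, -0.04 and 0.04. In nerve 0 members of the 8 lists were called in any comparison.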

How the data were processed

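The authors deposited 1 file of log2 values per library, with 1 value per gene symbol. The transform is not given in the sources used here. It resembles a regularised log, under which the fold change of a low gene would be shrunken. Per the labels' protocols, RNA came from a TRIzol extraction, library preparation used NEBNext Ultra reagents with no statement on strand, and sequencing was paired-end on a NovaSeq X Plus. Tools in the submitters' processing notes are STAR 2.7.8a, RSEM 1.3.3, DESeq2, cutadapt 2.3, MultiQC 1.7 and FastQC 0.11.8, with build GRCm38.

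A gene was tested where at least 6 libraries of the tissue reached log2 of 10, which left 17226 genes in nerve (5 of 5 members) and 15748 in muscle (4 of 5, without Ucp1). The 7 groups of a tissue shared 1 limma fit (version 3.58.1, R 4.3.3, trended and robust prior, statmod 1.5.0, data.table version 1.17.8). Tests were two-sided, and calls needed an adjusted p under 0.05 (Benjamini-Hochberg over all genes tested in a comparison). Percentages called cover both directions, and none is given for the alternative fits. Errors after a difference are limma standard errors, and those after a level are SD. A score is the mean over tested markers of the value centred on the tissue mean. Correlations with scores used 100000 permutations over all libraries of a tissue, without regard to group, and Benjamini-Hochberg adjustment over 10 relations. The fit was also run on simulated muscle values for HFD vs SD, with independent normal errors and 1 SD per gene. That run does not cover groups of unequal spread, and its outcome is not given here. Other software was Python 3.11.15, numpy 2.4.6, scipy 1.17.1, pandas 2.3.3 and matplotlib 3.10.9. Gene positions came from GENCODE and promoters from RefSeq, in which all 5 members were found.

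Named genes were the 5 members, the 5 genes with the highest Pearson r with each tested member (mean log2 of at least 5, no placeholder symbol), and up to 4 called genes of each list with the largest change. Values of Cidea, Elovl3, Cox8b, Lhx8, Prdm16, Adipoq, Lep and Slc25a20 are given after they were seen. Members and lists were chosen with earlier results of these data known. As the labels give neither mouse nor batch, p-values reflect library-to-library spread, which may be technical. No library was a copy of another, with pairwise correlations of at most 0.9993 in nerve and 0.999 in muscle. The alternatives tried are given in the closing section.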

Additional observations from a re-analysis of the deposited data

Results flagged for a closer look

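In 15 of 70 groups of a member and tissue, 1 library lay far from the others by Dixon's criterion, which chance alone meets in about 1 in 20 groups. Of these, 7 concern Ucp1, which was near its floor in most libraries. In nerve, Ucp1 was 7.95 in SD replicate 5 (next highest 3.37), 3.57 in HFD replicate 2 and 4.53 in KDI replicate 7. In muscle it was 1.80 in SD replicate 5, 0.92 in HFD replicate 1, 1.76 in DR replicate 7 and 0.85 in KDI replicate 4.

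Nerve Ucp3 was 9.21 in DR replicate 7, 9.63 in KDI replicate 3, 9.79 in EX replicate 5 and 9.89 in KDI_EX replicate 7. Nerve Slc25a4 was 13.67 in SD replicate 1, 13.91 in EX replicate 5 and 13.96 in KDI_EX replicate 7. These were the highest of their groups, and the skeletal muscle score of EX replicate 5 was 4.12, the highest of all nerve libraries. In muscle, Slc25a4 was lowest of the SD group in SD replicate 1, at 16.63 (next lowest 16.83).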

How the results depend on the processing

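Of 614 values of 30 results under alternatives, 598 kept their direction and side of the threshold, 7 lost the call, 4 gained one and 5 changed sign. Only 1 of the 30 results, muscle Ucp3 in HFD vs SD, was called at the start, so most of the 598 are differences that never passed. All 7 lost calls were of that result. It kept its call in 9 of 15 fits with a library left out and in 7 of 8 other settings. Muscle Ucp3 in HFD vs SD stayed at -0.61 with only the 2 groups fitted but lost its call (adjusted p = 0.11), and ran from -0.68 to -0.53 with each library left out, with adjusted p from 0.0042 to 0.128. Muscle Ucp3 in KD vs HFD ran from 0.41 to 0.52 with each library left out (adjusted p from 0.0413 to 0.282). Under 8 other settings it ran from 0.35 to 0.51. It was called in 1 of them, with the Schwann cell and myelin score as covariate (0.51), and adjusted p reached 0.448 over all alternatives. Ucp2 in KD vs HFD was called with the macrophage score as covariate (0.33), which was added after seeing the data, as were the Schwann cell and fast fibre scores, the fit without DR replicate 1 and KDI_EX replicate 6 and the tissue difference. The Slc25a4 minus Slc25a5 difference of KDI_EX and EX muscle ran from 0.17 to 0.28. Signs changed in small differences: muscle Ucp3 KDI_EX vs KDI (-0.085 to 0.061; 0.0066 without KDI replicate 1, 0.061 without KDI_EX replicate 3), its wheel by diet difference (-0.13 to 0.016; 0.016 without KDI_EX replicate 3), muscle Slc25a4 KD vs SD (-0.0050 with adipocyte and slow fibre scores as covariates) and nerve Slc25a4 KDI_EX vs EX (-0.0197 to 0.18; -0.0197 without KDI_EX replicate 7). The causes were not tested. Genes called per comparison ran from 0 to 12 in nerve and 0 to 50 in muscle, up to 329 and 103 with marker scores as covariates, and up to 5 and 105 with only the 2 groups compared. In nerve HFD vs SD, limma called 0 genes, 3135 had an unadjusted p under 0.05, and the count was 329 with covariates. No paired analysis was possible because no label ties a library to a mouse, and replicates carry numbers in accession order only. Depth is unknown, so how far it limits Ucp1 in muscle cannot be given.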
